A study of Mus musculus with 4 samples.

Results

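Visceral fat regulatory T cells that carry PPARg-2KR were compared with spleen regulatory T cells of the same genotype, using RNA sequencing counts of 1 library from each tissue. These 2 libraries, 2KR eWAT (epididymal white adipose tissue, a visceral fat depot) and 2KR spleen, are 2 of the 4 in the series. The other 2 are WT eWAT and WT spleen. All mice were C57BL/6 and aged 12 to 13 months, the genotype was WT or PPARg-2KR, and the cells were labelled Treg (regulatory T cells) and sorted before RNA extraction. Spleen cells served as the control for each fat library. The sources used here do not give the sorting gates, how many mice a library came from, or whether the altered receptor was present in every cell type. PPARg-2KR is a form of the nuclear receptor PPARG in which a pair of lysines is replaced by arginine, so that they cannot be acetylated. Of 23284 gene symbols counted, 8237 reached 20 CPM (counts scaled to the size of the library) in at least 1 of the 2 PPARg-2KR libraries and were kept for description.

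PPARG is a ligand-activated transcription factor that binds DNA together with a retinoid X receptor and exchanges corepressors for coactivators when a lipid ligand is bound. Visceral fat holds a population of Treg cells that expresses PPARG together with FOXP3, takes up lipid, carries the IL-33 receptor ST2 (gene Il1rl1) and produces IL-10 and amphiregulin (Areg). These cells accumulate with age in mice and have lost many genes of recirculating Treg cells such as Tcf7.

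Counts summed to between 8315569 (2KR eWAT, the shallowest) and 15993889 (2KR spleen, the deepest). All levels below are CPM scaled with trimmed mean of M-values (TMM) factors, and a tissue ratio is the log2 ratio of eWAT over spleen within a genotype, with a prior count of 2 reads. With 1 library on each side there is no replicate check and no p-value. The intervals are exact conditional binomial intervals of 95% on the read counts, or delta-method intervals for a difference of ratios. They cover counting error only, because reads are not independent molecules and no spread between mice is included. A gene with 0 reads is limited by 3 reads to 0.197 CPM in 2KR spleen and 0.311 CPM in 2KR eWAT. The words higher and lower, when genes are counted, stand for a ratio of 1 or more and −1 or less, a 2-fold difference.

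The Treg label was checked against defining genes. Foxp3, which defines the lineage, was found at 1298 CPM in 2KR spleen and 801 CPM in 2KR eWAT, a ratio of −0.70 (−0.74 to −0.66). Il2ra, the high-affinity IL-2 receptor chain, stood at 916 and 658 CPM, Ikzf2, the transcription factor Helios, at 237 and 279 CPM, and Cd4 at 658 and 399 CPM in the same order. Cd3e, a chain of the T cell receptor complex, went from 1161 to 572 CPM. Transcripts of T cells and Treg cells were thus plentiful in both libraries, with lower values of Foxp3, Il2ra, Cd4 and Cd3e in fat. In bulk libraries, fewer cells of a type and less RNA per cell cannot be told apart.

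The fat library also held transcripts of other cell types. Macrophage and monocyte markers summed to 133.4 CPM in 2KR spleen and 2699 CPM in 2KR eWAT, and 16 of the 20 found were kept, of which only Lyz2 was at 20 CPM or more in both libraries. Lyz2 (lysozyme) stood at 24.2 and 1209 CPM and Cd14 (the endotoxin co-receptor) at 0.787 and 125.9 CPM. Dendritic cell markers summed to 158.9 and 757.9 CPM, endothelial markers to 195.8 and 454.4 CPM, fibroblast and mesothelial markers to 59.3 and 755.9 CPM, and plasma cell markers to 407.3 and 3620 CPM, of which Igj (immunoglobulin joining chain) alone gave 64.3 and 2965 CPM. The dendritic sums include Bst2 (ratio −0.77) and Irf8 (0.23), and the endothelial sums Pecam1 (−0.77), their only members at 20 CPM or more in both libraries. In each of these lists 13 of 14 markers had the larger CPM in 2KR eWAT. The plasma cell list also holds Prdm1 and Irf4, which are on the fat Treg list too. The sums of B cell markers were closer between the tissues, at 453.8 and 554.9 CPM, as were those of CD8 T and NK cell markers, at 164.3 and 294.4 CPM. A near-equal sum does not mean equal members. Of the 16 B cell markers found, 12 had the larger CPM in 2KR eWAT, and the 7 kept had a median ratio of 1.66. The 2 at 20 CPM or more in both libraries had a median of −0.25. Mast cell markers summed to 10.3 and 103.8 CPM with none of 10 kept. Adipocyte markers summed to 41.2 and 141.5 CPM, of which Fabp4 alone gave 81.7 CPM in 2KR eWAT, and the adiponectin gene Adipoq had 8 reads in 2KR spleen and 11 in 2KR eWAT. Neutrophil markers stayed at 2.82 and 20.4 CPM and erythroid markers at 1.71 and 13.5 CPM. Some defining markers had 0 reads in 2KR spleen: Fcgr1 and Clec10a of macrophages, Fcer1a, Tpsb2, Cma1 and Mcpt4 of mast cells, Lum, Mgp and Bgn of fibroblasts, Cav1 and Cldn5 of endothelium, and Cfd, Slc2a4 and Adrb3 of adipocytes. In 2KR eWAT only Adrb3, Klra8 of NK cells and the 4 haemoglobin genes Hba-a1, Hba-a2, Hbb-b1 and Hbb-b2 had 0 among all these markers. The 4 haemoglobin genes had 0 reads in 2KR spleen as well. The erythroid sums thus rest on other genes and cannot show that red cells were absent. The part that such cells play in any single ratio was not tested. Reads in 1458 olfactory and vomeronasal receptor genes, which lymphocytes do not use, came to 2394 (157 CPM) in 2KR spleen. In the shallower 2KR eWAT they came to 12245 (1270 CPM), and 0 of these genes were kept. Reads in unused genes were thus more frequent in 2KR eWAT after scaling as well. The small sums of mast cell, neutrophil and erythroid markers rose in the same pair of libraries. The share of such unspecific reads in these small sums was not tested.

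**Figure D1:**
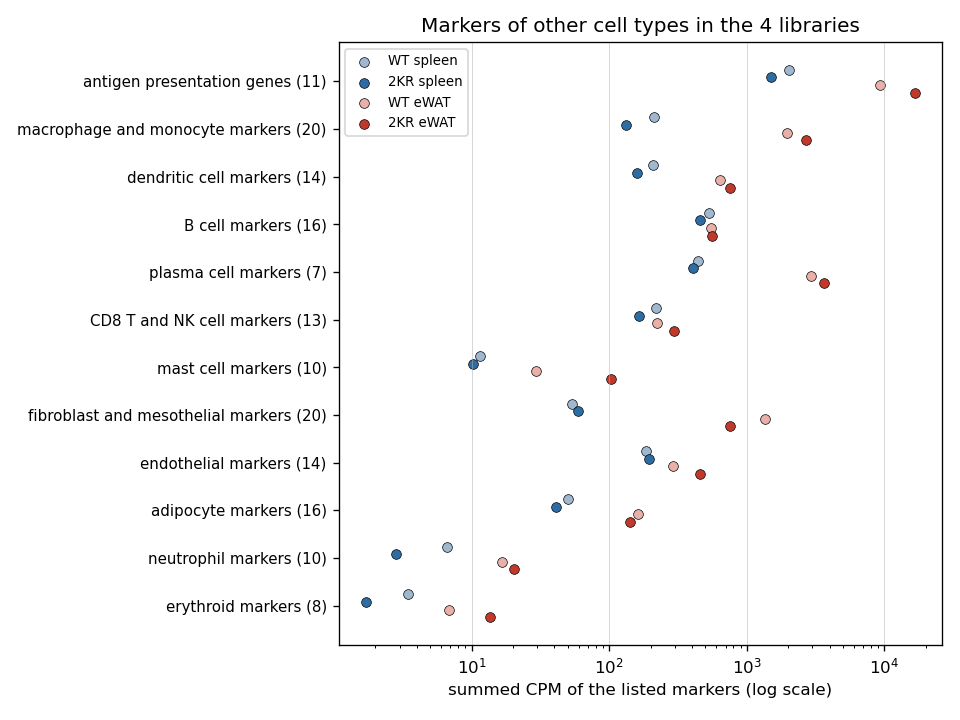
Summed CPM (log scale) of the listed markers of 12 groups of other-cell genes in each of the 4 libraries, with the number of markers found in brackets and 1 point for each library. Macrophage and monocyte markers lie at 133.4 CPM in 2KR spleen and 2699 CPM in 2KR eWAT, while B cell markers lie at 453.8 and 554.9 CPM.

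Among the 8237 kept genes, 677 (8.22%) were higher in 2KR eWAT and 1518 (18.4%) were lower, and the median ratio was −0.50. The balance of the 2 directions depends on scaling. Higher genes made up 30.8% of all genes past 2-fold with TMM scaling, 59.1% when CPM used total counts and 54.7% in the deposited FPKM. Total count scaling adds 0.28 to a PPARg-2KR ratio, or slightly less where a gene has few reads, and scaling by the summed reads of T cell identity genes, an alternative added after the data were seen, adds 0.90 and makes higher genes 94.6% of those past 2-fold. Of the 677 higher genes, 482 were under 20 CPM in spleen and so could be kept only through eWAT, and of the 1518 lower genes 491 were under 20 CPM in eWAT. Among the 6659 genes at 20 CPM or more in both libraries, 195 (2.93%) were higher and 1027 (15.4%) were lower. These shares, and those over all kept genes, are the background for the list counts below. The genes nearest the threshold were Ppp1r10, just inside at 1.003, and Insr, just outside at 0.999.

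**Figure D2:**
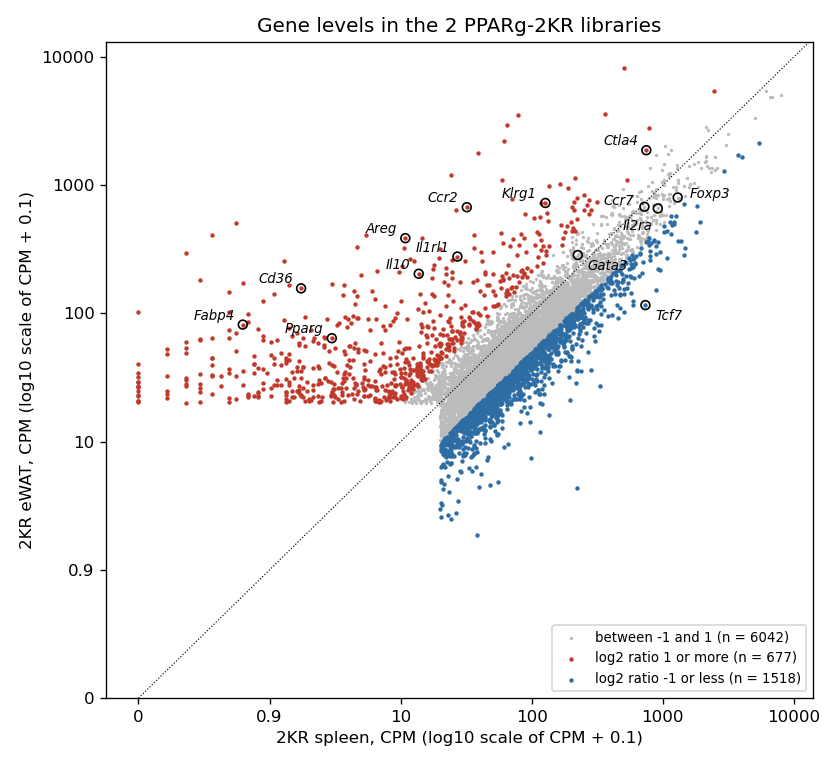
Level of each of the 8237 kept genes in 2KR spleen (horizontal) and 2KR eWAT (vertical), CPM on a log10 scale after adding 0.1, with genes higher in eWAT in red, lower in blue, the others grey, 14 of the anchor genes circled and the dotted line marking equal levels. Cd36, Fabp4, Areg and Il10 lie far above the line and Tcf7 below it.

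Cd36, Fabp4, Ccr2 and Il10, 4 genes that mark fat Treg cells, were higher in fat with the acetylation-dead receptor. Cd36 (mm9, chromosome 5, 17287508 to 17394777), the fatty acid translocase, stood at 1.64 CPM in 2KR spleen and 156.6 CPM in 2KR eWAT, a ratio of 6.44 (6.01 to 7.21). Fabp4 (chromosome 3, 10204343 to 10208576), a cytosolic fatty acid carrier, rested on 8 reads in 2KR spleen and 787 in 2KR eWAT, a ratio of 6.89 (6.30 to 8.50). Both genes are also abundant in macrophages, endothelium or adipocytes. Macrophage and endothelial markers were higher in the same library, while the rise of the adipocyte sum lay largely in Fabp4 itself. Ccr2 (chromosome 9, 124016922 to 124023879), the receptor for the monocyte chemokine CCL2, rose from 31.9 to 672.6 CPM, a ratio of 4.39 (4.27 to 4.54). Il10 (chromosome 1, 132916422 to 132921547), the anti-inflammatory cytokine, rose from 13.6 to 203.6 CPM, a ratio of 3.88 (3.69 to 4.11).

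The WT pair gave tissue ratios of 5.12 for Cd36, 7.76 for Fabp4, 6.01 for Ccr2 and 4.79 for Il10, so all 4 genes were higher in fat in both genotypes. The PPARg-2KR ratio minus the WT ratio was 1.32 (0.63 to 2.01) for Cd36 and −0.88 (−2.43 to 0.68) for Fabp4, the latter with a counting interval that includes 0. It was −1.62 (−1.83 to −1.41) for Ccr2 and −0.91 (−1.20 to −0.62) for Il10. Cd36 levels in fat were near each other, at 154.3 CPM in WT and 156.6 CPM in PPARg-2KR, and its larger PPARg-2KR ratio came with a lower spleen level (1.64 against 4.28 CPM, 25 reads in 2KR spleen).

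Pparg itself (chromosome 6, 115311239 to 115440419) remained a fat-high gene, with 44 reads (2.89 CPM) in 2KR spleen and 616 reads (63.9 CPM) in 2KR eWAT. Its ratio was 4.39 (4.03 to 4.95), against 4.46 in WT, and the difference of −0.07 (−0.62 to 0.49) lay within counting error. Counts per gene do not show the lysine replacements, so this level does not check the genotype label. The deposited transcript FPKM split the gene into the transcript for a 475-residue protein (PPARG1) and the one for a 505-residue protein (PPARG2, the form best known from adipocytes). In 2KR eWAT the 505-residue transcript was estimated at 26.1 FPKM (the authors' interval 22.8 to 29.5) and the 475-residue one at 16.3 FPKM (13.6 to 19.1), or 61.5 and 38.5% of the gene. In WT eWAT the order was the opposite, 0.973 FPKM (0.311 to 1.64) and 70.1 FPKM (66.3 to 74.0), or 1.37 and 98.6%. The spleen estimates were 1.09 and 0.432 FPKM in 2KR and 3.04 FPKM and about 0 in WT. These are model-based shares from 1 library each, and no test was made.

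Of the 40 listed fat Treg genes all were kept, 28 were higher in 2KR eWAT, 2 were lower and 10 lay between, with a median ratio of 2.15 beside −0.50 over all kept genes. Restricting to the 27 at 20 CPM or more in both libraries left 16 higher and 2 lower, with a median of 1.32. In WT the same 40 genes had a median of 3.05. Gene by gene, the PPARg-2KR ratio was below the WT ratio for 23 of 40, by 1 or more for 15, and above it by 1 or more for 5, with a median difference of −0.32. That median was −0.09 with total count scaling. Over the 8568 genes at 20 CPM or more in any of the 4 libraries, the median difference was −0.14, and 0.09 with total counts. Of those genes 3.07% were below by 1 or more and 3.15% above. The 749 genes higher in WT eWAT had a median difference of −0.36, so −0.32 is not particular to this list. Of these 749, 165 were below by 1 or more and 90 above, a closer background for the 15 and 5 of 40. The 749 were chosen by a high WT ratio, which by itself favours a negative difference. Within the fat Treg list, the retained and the reduced ratios were thus spread over different genes.

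The largest ratios of the list after Cd36 belonged to Ccr1, an inflammatory chemokine receptor (0.656 CPM in 2KR spleen and 34.3 CPM in 2KR eWAT, ratio 5.39, WT 7.54), Areg, the epidermal growth factor family member amphiregulin (10.8 and 385.7 CPM, ratio 5.14), and Zeb2, a transcription factor of terminally differentiated lymphocytes and of myeloid cells (2.03 and 60.3 CPM, ratio 4.78). Ccr3, the eotaxin receptor, stood at 3.28 and 84.8 CPM. Its ratio was 4.62 in PPARg-2KR and 4.54 in WT, and the counting interval of the difference included 0. Zeb2 had the larger ratio in PPARg-2KR, by 1.86 (1.26 to 2.47), and so did Gzmb, the cytotoxic protease granzyme B, by 1.27 (0.96 to 1.57).

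The 15 genes whose ratio was smaller than in WT by 1 or more were Il1rl1, Il9r, Cxcr6, Areg, Ccr1, Hilpda, Klrg1, Ccr2, Lgals3, Plin2, S100a4, Gata3, S100a6, Rora and Lgals1. Il1rl1, the gene of ST2, went from 27.0 CPM in 2KR spleen to 277.2 CPM in 2KR eWAT, a ratio of 3.35 (3.21 to 3.51), while the WT libraries had 16.5 and 1428 CPM and a ratio of 6.42. The difference of −3.07 (−3.32 to −2.82) combines a higher spleen level and a lower fat level in PPARg-2KR. The transcript for the 567-residue membrane receptor made up 89.3% of Il1rl1 FPKM in 2KR spleen and 77.7% in 2KR eWAT, and the one for the 337-residue soluble form made up 10.7 and 22.3%. In WT the soluble share was 14.1% in spleen and 12.6% in eWAT. Areg differed by −2.29 (−2.62 to −1.97), Klrg1, an inhibitory receptor of differentiated T cells, by −1.82 (−1.93 to −1.71), and Cxcr6, the receptor for CXCL16, by −2.66 (−2.90 to −2.41). Klrg1 was nonetheless at 127.0 CPM in 2KR spleen and 726 CPM in 2KR eWAT. Gata3, the transcription factor of type 2 T cells, was past 2-fold in WT and not in PPARg-2KR, as were Irf4 (0.95, WT 1.54) and Prdm1 (0.85, WT 1.10). These calls depend on scaling. Adding the 0.28 of total count scaling takes Irf4 and Prdm1 past 2-fold in PPARg-2KR, and 32 of the 40 genes are then higher. Gata3 stays under 2-fold at 0.62 with total counts and reaches 1.24 under scaling by T cell identity genes. Gata3 stood at 224.5 and 284.9 CPM in the 2 PPARg-2KR libraries, a ratio of 0.34 (0.27 to 0.42), and at 209.1 and 682.4 CPM in WT, a ratio of 1.71. Its difference was −1.36 (−1.46 to −1.27).

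Members lower in fat were Itgae, the integrin chain CD103 (160.7 and 39.0 CPM, ratio −2.04), and Penk, the enkephalin precursor (353.9 and 107.0 CPM, ratio −1.72). Batf, an AP-1 family factor needed for tissue Treg cells, was at −0.78 and Ptger4, a prostaglandin E2 receptor, at −0.57. All 4 also had negative ratios in WT, from −3.22 for Itgae to −0.92 for Ptger4. Adding the 0.28 of total count scaling leaves all 4 negative, and adding the 0.90 of T cell identity scaling turns Batf and Ptger4 positive.

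**Figure D3:**
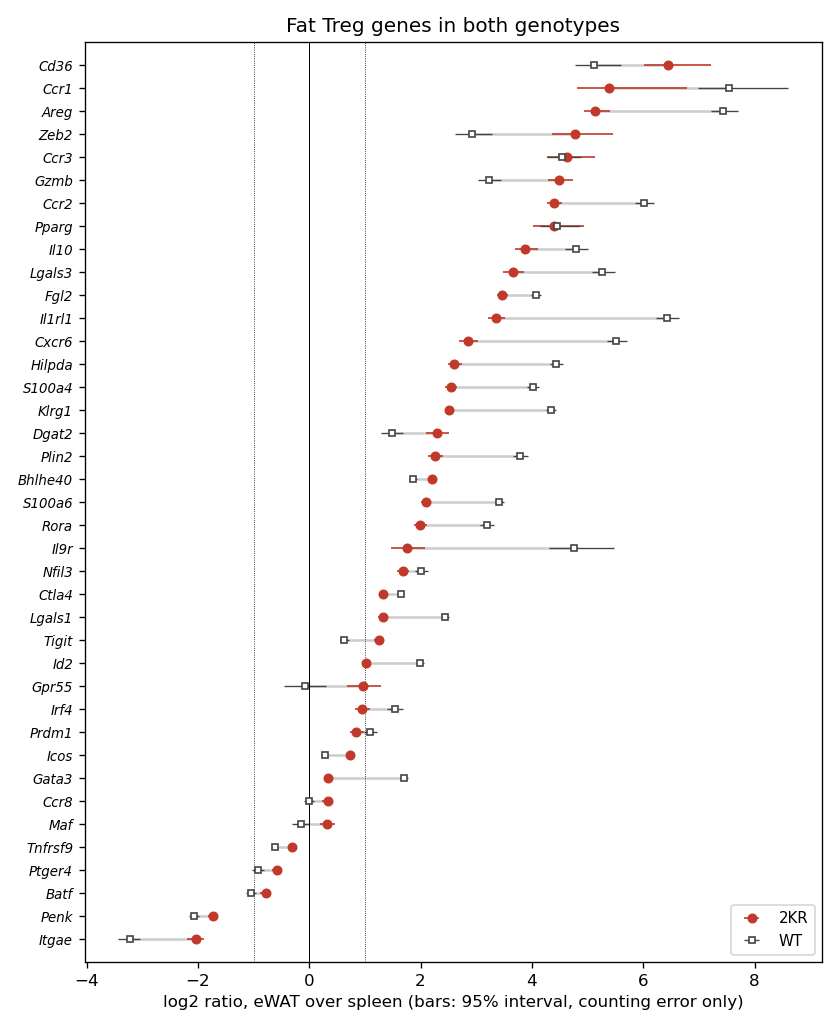
Tissue log2 ratio (horizontal, eWAT over spleen) of 39 of the 40 fat Treg genes in PPARg-2KR (filled red circles) and WT (open squares), with bars for 95% counting intervals, dotted lines at −1 and 1 and a grey line joining the genotypes. Cd36, Zeb2 and Gzmb lie further right in PPARg-2KR, and Il1rl1, Areg, Ccr2 and Klrg1 further right in WT.

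Recurring sequence in fat Treg promoters was looked for in the 250 bases before each RefSeq transcription start (GRCm38.p6, a different build from the files, used for sequence only). An AP-1 site, TGANTCA on either strand, which dimers of FOS, JUN and BATF proteins bind, was present in 7 of 38 promoters of the 30 fat Treg genes that had an entry (18.4%). It was present in 6.75% of all 32851 promoters, in 7.41% of those of kept genes higher in fat and in 3.56% of those lower in fat. In promoters of the interferon list, in which 12 of 24 kept genes were lower in fat, it was present in 6 of 27 (22.2%). Of the 7 fat Treg matches 2 were at Prdm1 (0.85) and Tnfrsf9 (−0.31), which were not past 2-fold. A pair of AGGTCA sites in the same direction, 1 base apart, which is the element of PPARG with its partner, was searched on both strands with 1 mismatch allowed and was found in 0 of these 38 and in 0.484% of all promoters. With an element this rare, 0 of 38 promoters cannot show that it is lacking near these genes. A match is a run of letters in this window and nothing more. The 5 promoters below belong to fat Treg genes that were higher in 2KR eWAT, each printed 5′ to 3′ on the gene's strand with the first AP-1 match in capitals, to show where it lies. Zeb2 had 2 matches, and the second is not marked.
Ccr3, chr9:124021797-124021863, plus strand: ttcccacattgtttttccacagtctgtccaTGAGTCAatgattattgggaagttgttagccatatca
Zeb2, chr2:45110430-45110496, minus strand: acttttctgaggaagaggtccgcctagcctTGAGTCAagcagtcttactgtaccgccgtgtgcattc
Gzmb, chr14:56262356-56262422, minus strand: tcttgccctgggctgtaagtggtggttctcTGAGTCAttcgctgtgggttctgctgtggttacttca
Fgl2, chr5:21372627-21372672, plus strand: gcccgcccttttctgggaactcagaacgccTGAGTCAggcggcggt
Hilpda, chr6:29272468-29272534, plus strand: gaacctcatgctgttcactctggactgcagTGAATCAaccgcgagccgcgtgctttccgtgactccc

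Several lipid storage genes were higher in fat, while most fatty acid oxidation genes were not past 2-fold. In the lipid droplet and lipolysis list, 4 of 10 kept genes were higher and 0 lower, with a median of 0.53. Hilpda, an inhibitor of lipolysis that coats droplets, rose from 41.5 to 254.3 CPM (ratio 2.61), the droplet coat protein gene Plin2 from 37.8 to 181.7 CPM (2.26), and the triglyceride synthesis enzymes Dgat1 and Dgat2 from 43.7 to 209.4 CPM (2.26) and from 17.6 to 86.8 CPM (2.29). WT ratios were 4.44 for Hilpda, 3.79 for Plin2, 3.04 for Dgat1 and 1.48 for Dgat2. The lipases Pnpla2 (−0.03) and Lipe (−0.36) were not past 2-fold.

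In the list of fatty acid uptake and binding, 4 of 10 kept genes were higher (Cd36, Fabp4, the lipoprotein receptor Lrp1 at 4.87 and lipoprotein lipase Lpl at 3.19) and 0 were lower. Each of the 4 was under 20 CPM in spleen, and the 5 members at 20 CPM or more in both libraries had a median of −0.69. Of 18 kept fatty acid oxidation genes only Cpt1a, the mitochondrial entry step, was higher (86.6 and 203.4 CPM, ratio 1.23, WT 1.80), and Cpt2 (−1.13) and Acads (−1.01) were lower. Their median of −0.36 lay near that of all kept genes. In the efflux and sterol list, Pltp (6 and 1418 reads, ratio 8.04) and Apoe (17.2 and 140.8 CPM, ratio 3.02), lipoprotein genes that macrophages express strongly, were higher together with the macrophage markers. Scd2 (−1.89), a desaturase, and Srebf1 (−1.76), a regulator of fatty acid synthesis, were lower.

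Of 17 kept partners and coregulators of PPARG, 0 were higher and 2 were lower, beside 8.22 and 18.4% of all kept genes. The lower ones were Kat2a (−1.82), an acetyltransferase, and Rxrb (−1.41), a retinoid X receptor. The list median of −0.43 lay near the −0.50 of all kept genes. Rxra, another retinoid X receptor, stood at 31.5 and 42.4 CPM (ratio 0.43), and Sirt1, a deacetylase of PPARG, at 53.2 and 74.4 CPM (ratio 0.48). The median of the same genes in WT was 0.00, beside −0.34 over all genes kept in WT. Under total count scaling the PPARg-2KR median was −0.15, beside −0.19 over all kept genes.

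Genes of resting and recirculating Treg cells were lower in fat. Of 23 kept members, 19 were lower, 1 was higher and 3 lay between, with a median of −1.61. At 20 CPM or more in both libraries, 16 of 18 were lower. Dtx1, a Notch pathway ubiquitin ligase, stood at 220.5 CPM in 2KR spleen and 4.25 CPM in 2KR eWAT, 49.9-fold lower. Tcf7, the factor TCF1 of naive and resting T cells, went from 737 to 115.9 CPM (ratio −2.67). Id3, an inhibitor of E proteins, stood at −2.96, Cxcr5, the follicle homing receptor, at −3.20, and Nsg2 at −3.06.

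Ccr7, the lymph node homing receptor, was not past 2-fold. Its PPARg-2KR levels were 724 CPM in spleen and 679 CPM in eWAT, a ratio of −0.09 (−0.14 to −0.05). The WT levels were 699 and 316.2 CPM, a ratio of −1.14. The Ccr7 ratios differed by 1.05 (0.98 to 1.12). Over the list the median difference was 0.34. Ccr9, the gut homing receptor, was the member higher in fat (14.6 and 49.0 CPM, ratio 1.73, WT 3.64), and Il7r, the IL-7 receptor, stood at 0.58. With total counts 14 of the 23 were lower, and scaling by T cell identity genes left 8.

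Treg core genes were mixed. Of 20 kept members, 3 were higher and 4 lower, with a median of −0.11 that turned to 0.17 with total counts. All 20 were at 20 CPM or more in both libraries, where 2.93% of all genes were higher and 15.4% lower. Ctla4, the inhibitory receptor that strips costimulatory ligands, stood at 749 CPM in 2KR spleen and 1872 CPM in 2KR eWAT (ratio 1.32, WT 1.64), Entpd1, the ectonucleotidase CD39, at 80.1 and 176.0 CPM (1.13), and Dusp4, a phosphatase of mitogen-activated kinases, at 21.0 and 67.5 CPM (1.68). Gpr83, an orphan receptor, fell from 329 to 27.2 CPM (−3.59), Folr4, a folate receptor family member, from 889 to 152.4 CPM (−2.54), Nt5e, the ectonucleotidase CD73, from 533 to 157.8 CPM (−1.76) and Ikzf4, the transcription factor Eos, from 126.8 to 37.6 CPM (−1.75). Foxp3 had ratios of −0.70 in PPARg-2KR and −0.28 in WT, and Il2ra of −0.48 and −0.02. Both of these PPARg-2KR ratios stayed negative with total counts (−0.42 and −0.20) and turned positive under scaling by T cell identity genes (0.20 and 0.42).

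T cell identity genes were lower as a group, 7 of 16 by 2-fold and 0 higher, with a median of −0.92 beside −0.50 for all kept genes. Lat, the adaptor of T cell receptor signalling, stood at 464.4 and 156.9 CPM (−1.56), Cd3d at 803 and 277.9 CPM (−1.53), the kinase gene Lck at 1820 and 686 CPM (−1.41) and the T lineage factor gene Bcl11b at 446.3 and 167.0 CPM (−1.42). Their summed level was 12490 CPM in 2KR spleen and 6702 CPM in 2KR eWAT. The WT sums were 13560 CPM in spleen and 8210 CPM in eWAT. Markers of macrophages, dendritic cells, fibroblasts and endothelium moved the opposite way in the same pair of libraries (macrophage and monocyte markers from 133.4 to 2699 CPM), and their part in the lower T cell levels was not tested. With total counts 5 of the 16 were lower and the median was −0.64.

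Genes for suppressor molecules included many that were higher in fat. Of 18 kept members 10 were higher and 2 lower, with a median of 1.19, and of the 12 at 20 CPM or more in both libraries 6 were higher and 1 lower. Besides Areg and Il10, Gzmb went from 11.7 to 267.2 CPM (4.49) and Fgl2, a secreted suppressor of antigen-presenting cells, from 70.5 to 782.7 CPM (3.47). Nt5e and Lag3, a checkpoint receptor (39.7 and 17.0 CPM, ratio −1.21, WT −3.04), were the lower members. Lrrc32, the gene of GARP, which holds latent TGF-beta on the cell surface, was at 257.2 and 285.2 CPM (ratio 0.15) but at 263.2 and 76.1 CPM (−1.79) in WT, a difference of 1.94 (1.81 to 2.07).

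Chemokine and homing receptors moved in both directions, with 6 of 26 kept members higher and 6 lower, beside 8.22 and 18.4% of all kept genes. Of the 6 higher ones 4 were under 20 CPM in spleen. Among the 22 members at 20 CPM or more in both libraries 2 were higher and 6 lower, beside 2.93 and 15.4% of all such genes. The higher ones included Ccr1, Ccr2, Ccr3, Cxcr6 and Ccr9, receptors of inflamed tissue or gut. Among the lower ones were Cxcr5, Itgae and Ccr6, the receptor for CCL20 (130.3 and 38.9 CPM, ratio −1.74). The median was 0.12 over the 26 and −0.42 over the 22.

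Immediate early and AP-1 genes, which receptor stimulation switches on within minutes, were higher in fat for 14 of 29 kept members and lower for 5, with a median of 0.92, beside 8.22 and 18.4% of all kept genes. At 20 CPM or more in both libraries 7 of 22 were higher and 5 lower, with a median of 0.57. In WT the same genes had a median of 1.87, and the PPARg-2KR ratio was below the WT ratio for 26 of 29 and by 1 or more for 17. Atf3, a stress-induced factor, stood at 1.18 CPM in 2KR spleen and 256.5 CPM in 2KR eWAT (7.57, WT 10.01), Fosl2, an AP-1 subunit, at 4.52 and 331.3 CPM (6.14, WT 6.27), Ier3 at 1.97 and 74.3 CPM (5.13, WT 5.79) and Nr4a2, an orphan nuclear receptor, at 10.4 and 322.5 CPM (4.93, WT 3.84). Jun, the classical AP-1 subunit, was lower in fat, 592.9 and 124.4 CPM (−2.25, WT −0.68), as were Myc (−1.20), Rgs1 (−1.20) and Dusp2 (−1.17). The median difference of −1.05 was −0.82 with total counts.

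NF-kB pathway genes gave 6 higher and 1 lower of 22 kept, with a median of 0.33. Tnfaip3, the deubiquitinase A20 that ends NF-kB signalling, rose from 359.5 to 3570 CPM (3.31, WT 4.52), and Nfkbiz, a nuclear inhibitor family member, from 165.0 to 1016 CPM (2.62, WT 4.23). Rel, a subunit, rose from 28.3 to 174.0 CPM (2.62, WT 1.72). Ikbke, a kinase, was lower (−1.66), with a WT ratio of −1.66 as well. Of the type 2 and effector list 10 of 24 were kept, of which 5 were higher and 1 was lower. Il6 had 5 reads in 2KR spleen and 262 in 2KR eWAT (5.79), Ifng stood at 15.6 and 67.3 CPM, and Tbx21, the type 1 factor T-bet, at 30.6 and 116.1 CPM (1.92, WT 0.28). Stat6, which transmits IL-4 signals, was the lower member (−1.05).

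Interferon response genes were lower in fat in 12 of 24 kept members and higher in 0, with a median of −1.02, and in WT their median was −1.07. Usp18, a brake on the interferon receptor, stood at 114.3 and 23.6 CPM (−2.27), Rtp4 at 82.8 and 17.2 CPM (−2.25) and Xaf1 at 55.0 and 14.7 CPM (−1.89). Ly6a, the surface antigen Sca-1, had the highest ratio of the list at 0.59 (WT 1.59). With total counts 9 of the 24 were lower and the median was −0.74, and scaling by T cell identity genes left 3 lower with a median of −0.12.

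The interferon-stimulated response element, searched as GAAANNGAAA on either strand, occurred in 12 of 27 promoters of the 22 interferon genes with a RefSeq entry (44.4%). Its share was 2.98% of all promoters and 3.31% of the promoters of all kept genes lower in fat. Of the 12 genes with a match 4 were lower in 2KR eWAT, and others were not past 2-fold, such as Isg15 (−0.05) and Oas1a (−0.33). The windows of these 4 are printed to show where the match lies, with the first match in capitals and read on the gene's strand. Ifit1 and Irgm1 had 2 matches each, and the second is not marked. A match on the opposite strand appears as TTTC repeats.
Ifit1 (58.4 CPM in 2KR spleen, 20.4 in 2KR eWAT), chr19:34640755-34640824, plus strand: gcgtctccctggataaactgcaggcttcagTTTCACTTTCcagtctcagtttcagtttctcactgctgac
Irgm1 (403.0 and 138.5 CPM), chr11:48871421-48871480, minus strand: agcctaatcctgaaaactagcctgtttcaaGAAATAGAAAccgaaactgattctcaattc
Stat2 (99.5 and 45.0 CPM), chr10:128270248-128270315, plus strand: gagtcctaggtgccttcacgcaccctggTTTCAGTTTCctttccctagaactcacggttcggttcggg
Gbp2 (256.7 and 120.1 CPM), chr3:142620574-142620643, plus strand: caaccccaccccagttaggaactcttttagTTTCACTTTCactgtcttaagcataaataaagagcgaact

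Genes of metabolism and growth programs were lower in fat in shares of 1 of 23 to 3 of 15 of the kept members of a list, beside 18.4% of all kept genes. Oxidative phosphorylation genes had a median of −0.73 with 1 of 23 past 2-fold (Uqcrc2, a complex III core protein, at −1.04), and the highest member, Ndufa1, was at −0.32. The oxidative phosphorylation median was −0.44 with total counts and 0.17 under scaling by T cell identity genes. Glycolysis genes gave 1 higher and 2 lower of 14: the lactate exporter Slc16a3 (305 and 540 reads, ratio 1.48, WT −0.01), hexokinase Hk1 (−1.43) and the kinase Pdk1 (−1.02). Heat shock genes gave 0 higher and 3 lower of 15, led by the mitochondrial co-chaperonin Hspe1 (−1.59) and by Hsph1 (197.5 and 77.3 CPM, −1.35, WT 0.38). Cell cycle genes gave 1 lower of 12, the replication helicase subunit Mcm2 (−1.09), while the proliferation marker Mki67 stood at 35.5 and 43.6 CPM (0.29).

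**Figure D4:**
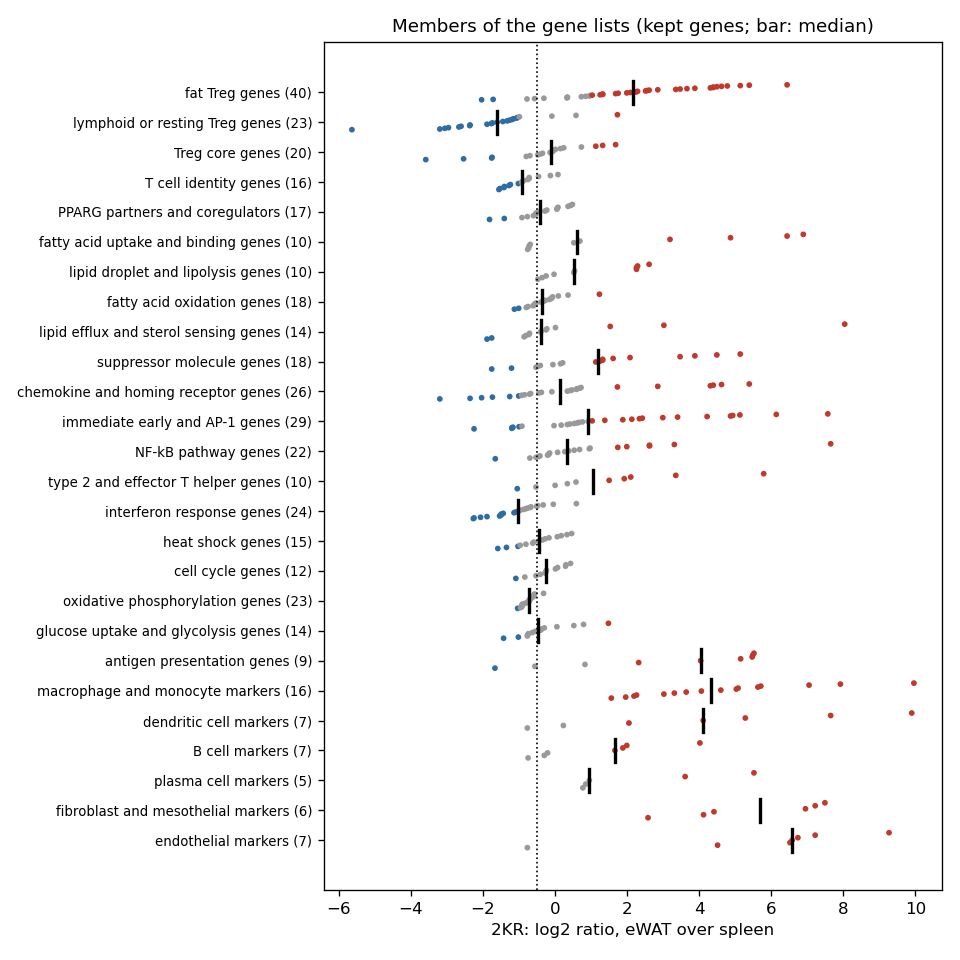
PPARg-2KR tissue log2 ratio of each kept member of the lists with 5 or more kept genes (number in brackets), with points at 1 or more in red, at −1 or less in blue and the rest grey, a black bar for the list median and a dotted line at the median of all kept genes, −0.50. Fat Treg, antigen presentation and macrophage lists have medians of 2.15, 4.04 and 4.33, and the lymphoid or resting and interferon lists have medians of −1.61 and −1.02.

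Genes of antigen-presenting cells had high ratios. Of 9 kept antigen presentation genes 6 were higher and 1 lower, with a median of 4.04, and 2.60 in WT. The MHC class II genes H2-Ab1 (78.2 and 3518 CPM, 5.49), H2-Eb1 (38.5 and 1779 CPM, 5.52) and H2-Aa (61.7 and 2191 CPM, 5.15), the peptide loading gene H2-DMb1 (5.47) and the invariant chain Cd74 (502 and 8267 CPM, 4.04) rose together. Each had a larger ratio than in WT, by 1.29 for H2-Ab1 to 1.66 for H2-Eb1. Macrophage and monocyte markers had a median of 4.33 in PPARg-2KR and 2.83 in WT, over the 16 kept of 20 found. Fibroblast and mesothelial markers went the other way, 5.68 against 7.13, and Dcn, the matrix proteoglycan decorin, stood at 0.984 and 142.3 CPM in PPARg-2KR and at 0.404 and 348.5 CPM in WT. Igj had ratios of 5.52 in PPARg-2KR and 5.06 in WT.

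Myeloid, endothelial and stromal genes led the ratios over all genes. The highest ratios with at least 100 reads were those of Mgl2 (2 and 2850 reads, 9.96), Cd209a (4 and 3934 reads, 9.90) and Il1b (7 and 4844 reads, 9.65), a pair of myeloid lectins and the cytokine IL-1β. Next came Cav1, Retnla, Pltp, Ccl9, Clec10a, Slamf9, Fbln2, Lyz1 and Ccl22, down to 7.65 for Ccl22. In all, 15 of the higher genes had 0 reads in 2KR spleen. With a floor of 3 reads in that library, Cav1, a caveolar protein of endothelium, was at least 522-fold higher, Clec10a, a myeloid lectin, at least 204-fold and Lyz1 at least 173-fold. Lyz1 and Lyz2 are close copies, as are Mgl2 and Clec10a, and reads with several hits could be split between them in an unstated way. At 20 CPM or more in both libraries the ratios were led by Lyz2, H2-Eb1, Igj, H2-Ab1 and H2-Aa, with Trf, the iron carrier transferrin (26.2 and 636.9 CPM, 4.59), Ccr2, Crem, a cAMP response factor (58.8 and 1096 CPM, 4.22), Tmem176b (3.49), Fgl2 and Dennd4a (3.41) among the others.

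At the low end, Dtx1 had the lowest ratio. After it came Slc7a10, an amino acid transporter (38.0 and 1.76 CPM, −4.31), Capn3, a calpain protease (97.8 and 7.37 CPM, −3.70), Gpr83, Gata1 (55.0 and 4.77 CPM, −3.48), Lad1 (−3.39), the cytokine gene Lta (115.7 and 11.7 CPM, −3.28), Rasal1 (−3.26), Cd160 (−3.22), Cxcr5, Abi3 (−3.12) and Nsg2. At 20 CPM or more in both libraries, Pik3ip1, an inhibitor of PI3 kinase (219.0 and 28.4 CPM, −2.94), Slfn1, a quiescence gene (−2.74), Rgs10 (−2.63), Evl (−2.61), Sun2 (−2.60), Igf2r (−2.41) and Sdhaf1 (−2.39) stood beside Gpr83, Cxcr5, Id3, Tcf7 and Folr4.

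The question of which fat-associated genes still move with the altered receptor was asked with lists taken from the WT pair, which shares no library with the PPARg-2KR pair. Of 8313 genes kept in WT, 749 (9.01%) were higher in WT eWAT and 1144 (13.8%) were lower. Among the 749, 575 (76.8%) were also higher in 2KR eWAT, beside 8.22% of all genes kept in PPARg-2KR. A further 160 had the same sign without reaching 2-fold, and 14 had the opposite sign. The 749 include genes of other cell types, such as Mgl2, Cd209a, Cav1 and Igj. The shares were not split by cell type, so they do not describe Treg cells alone. Their median ratio was 2.22 in WT and 1.89 in PPARg-2KR, and 502 had the smaller ratio in PPARg-2KR. Of the 1144 fat-low genes 845 (73.9%) were also lower in 2KR eWAT, beside 18.4% of all genes kept in PPARg-2KR, 295 had the same sign and 4 did not. Of 412 genes at 2 or more in WT, 401 reached 1 in PPARg-2KR and 325 reached 2, and of 155 at −2 or less, 150 reached −1.

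The reverse was counted too. Of the 677 genes higher in 2KR eWAT, 583 (86.1%) were also higher in WT, with a median difference of 0.29, and of the 1518 lower ones 822 (54.2%) were also lower in WT, with a median difference of −0.25. Both choices thus gave a difference toward the pair used to choose, −0.36 for the 749 WT genes and 0.29 for the 677 PPARg-2KR genes. Across the 7982 genes kept in both pairs, Pearson's r of the ratios was 0.91. It describes genes, which are not independent replicates and share libraries. With total counts 82.9% of WT fat-high and 48.2% of WT fat-low genes were retained.

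**Figure D5:**
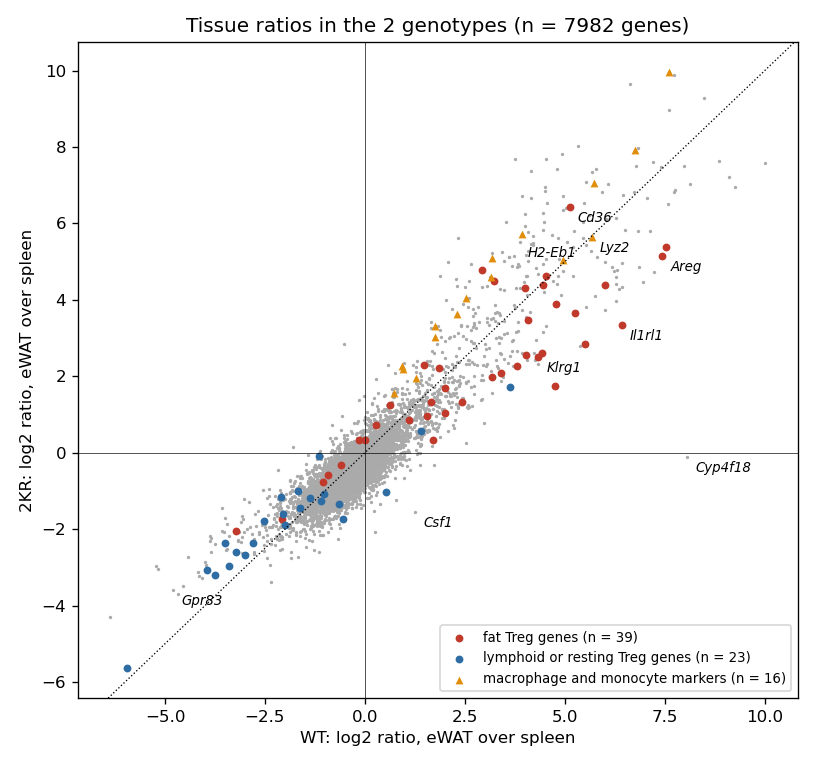
Tissue log2 ratio in WT (horizontal) and PPARg-2KR (vertical) for the 7982 genes kept in both pairs, with fat Treg genes in red, lymphoid or resting Treg genes in blue, macrophage and monocyte markers as orange triangles and a dotted line at equal ratios. Il1rl1 and Areg lie below the line among the fat-high genes, most macrophage markers lie above it, and Cyp4f18 is near 0 in PPARg-2KR.

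Over the 8568 genes that reached 20 CPM in any of the 4 libraries, the PPARg-2KR ratio exceeded the WT ratio by 1 or more for 270 (3.15%) and fell short of it by 1 or more for 263 (3.07%). With total counts these were 499 and 131. Among strong WT fat-high genes the widest gap belonged to Cyp4f18, a cytochrome P450 that inactivates leukotriene B4. It stood at 0.727 CPM in WT spleen and 236.0 CPM in WT eWAT, a ratio of 8.05. In 2KR spleen it was already at 62.2 CPM, and in 2KR eWAT at 57.4 CPM, a ratio of −0.12 (−0.27 to 0.04). Il1rl1, Mmp25, a membrane-anchored metalloproteinase (difference −3.85), and Il9r, the IL-9 receptor (8.39 and 28.6 CPM, ratio 1.75, WT 4.75), were the other fat-high genes with a smaller ratio among the 10 widest gaps. The remaining 6 had larger ratios in PPARg-2KR: Fbln2, Nav1, Lyz1, Il1b, Clec4a3 and Slamf9, each with 10 CPM or less in either spleen library. The difference of Lyz1, which had 0 reads in 2KR spleen, was 3.16 with a counting interval of −0.91 to 7.24.

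Fat-high genes with nearly equal ratios in both genotypes included Tnfrsf12a, the TWEAK receptor (2.17 in PPARg-2KR, 2.17 in WT), Evi5 (2.24 and 2.26), Pcyt1a, an enzyme of phosphatidylcholine synthesis (19.6 and 271.4 CPM in PPARg-2KR, 3.78, WT 3.76), Fndc3b (2.38 and 2.35), Hpgd, which breaks down prostaglandin E2 (4.66 and 52.6 CPM, 3.45, WT 3.48), and Lyz2. Cbfa2t3, Ogn and C7 belonged to the same group but had only 12, 4 and 3 reads in 2KR spleen.

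Fat-low genes whose ratio was less negative in PPARg-2KR included Slc40a1, the iron exporter ferroportin (27.3 and 3.32 CPM, −2.98, WT −5.21), Lrig1, a negative regulator of growth factor receptors (177.1 and 54.4 CPM, −1.70, WT −3.50), Lag3, H2-Ob, a class II chaperone chain (104.9 and 76.5 CPM, −0.45, WT −2.16), and Hdac9, a histone deacetylase (15.9 and 15.7 CPM, −0.02, WT −2.15). All 10 of the widest gaps among fat-low genes were in this direction. The 155 genes at a WT ratio of −2 or less, from which they were taken, had a median difference of 0.75. Choosing genes by a low WT ratio by itself favours this direction, so no effect of genotype is read from it. Falls of nearly equal size were seen for Ltb, the lymphotoxin beta chain (1470 and 325.5 CPM, −2.17, difference −0.07), Trib2 (−2.17, WT −2.22), Bmyc (−2.22, WT −2.20) and Abtb2 (−2.12, WT −2.16).

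At 20 CPM or more in all 4 libraries the largest positive differences were those of Lrrc32, H2-Ob, H2-Eb1, Tbx21, the imprinted noncoding RNA Kcnq1ot1 (1.54), the granule gene Nkg7 (1.51), Slc16a3 and Trf. The most negative were Csf1, Cxcr6, Sp6, Itgb3, Cd69, Hist3h2a, Ctla2a and Hilpda. Csf1, the growth factor of macrophages, changed direction: it stood at 118.4 CPM in 2KR spleen and 40.4 CPM in 2KR eWAT, a ratio of −1.55 (−1.71 to −1.39), and at 101.0 and 242.3 CPM in WT, a ratio of 1.26. Cd69, a retention and early activation receptor, stood at 292.5 and 499.6 CPM (0.77) against 256.7 and 2041 CPM in WT (2.99). Itgb3, the integrin β3 chain, had ratios of 0.24 and 2.53, and Ctla2a, a cathepsin inhibitor, of 2.33 and 4.32.

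The deposited FPKM gave the same direction for all genes past 2-fold in CPM except 1, while some small ratios changed sign. Ccr7 went from −0.09 in CPM to 0.23 in FPKM and Pnpla2 from −0.03 to 0.23. Of 8213 kept genes with a usable FPKM in both libraries, all 676 higher genes with a value had a higher FPKM in 2KR eWAT and 655 were past 2-fold on the log2(FPKM + 1) scale. Of 1510 lower genes 1509 had a lower FPKM, and 620 were past 2-fold. The median log2 ratio of FPKM was −0.22, closer to 0 than that of TMM-scaled CPM, and r across genes between the measures was 0.969. On this scale Cd36 was at 5.43, Fabp4 at 7.02, Ccr2 at 4.57, Il10 at 4.17, Pparg at 4.10 and Foxp3 at −0.38. FPKM came from the same reads, so this is a check of the counting and scaling and not a second measurement.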

How the data were processed

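RNA of sorted Treg cells was sequenced in 4 libraries, 1 for each genotype and tissue. Per the deposited readme, the authors used Tophat 2.1.0 to align 100 bp reads of poly-A RNA with UCSC mm9 (4 mismatches and 10 hits at most), and the deposited gene counts are whole reads per gene symbol. Which tool counted, whether it used strand and how it treated reads with several hits is not given in the sources used here. Hence antisense and overlapping genes and close copies cannot be separated. The authors' FPKM per gene and per transcript came from Cufflinks 2.0.2, per the deposited readme.

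Counts were scaled with TMM factors (edgeR 4.0.16, R 4.3.3), log2 ratios used a prior count of 2, and a gene was kept where either library of a pair reached 20 CPM. FPKM were compared as log2(FPKM + 1). Intervals of 95% were computed with scipy 1.17.1, and the calculations were tested on simulated data. No library has a replicate, so no test across genes was run. Motifs were sought in RefSeq promoters of GRCm38.p6, and loci are those of mm9 in the deposited tables.

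The named genes were 15 anchors, the 12 highest and lowest ratios (at 100 reads or more, and at 20 CPM or more in both libraries), up to 4 members of each list and direction, the 10 largest and smallest differences from WT among genes at a WT ratio of 2 or more in size, and the 8 highest and lowest differences at 20 CPM or more in all 4 libraries. Marker genes of cell types, the genes at the threshold, the highest oxidative phosphorylation gene, genes with promoter matches, and fat Treg genes whose ratio differed from WT or left the 2-fold class were named beside these, the last 4 kinds after their values were seen. The members, the 31 lists and these rules were chosen with earlier results of these data known. Alternatives were total count scaling, DESeq2 1.42.0 size factors, other floors and prior counts, FPKM, totals without Rn45s, and, added after the data were seen, scaling by T cell identity genes. A few members of the lists are counted but not reported by name here.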

Additional observations from a re-analysis of the deposited data

Results flagged for a closer look

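Csf1, which encodes the growth factor of macrophages, had tissue ratios of opposite sign in the genotypes. Its log2 ratio of eWAT over spleen was −1.55 in PPARg-2KR and 1.26 in WT, each from 1 library a side, and the difference between the genotypes was not tested.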

How the results depend on the processing

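With 1 library per group, no replicate could be left out. No paired analysis was possible because no group has more than 1 library. DESeq2 size factors, a prior count of 0.5 and totals without Rn45s kept every count of calls within 1.5 times. The 677 higher genes became 2735 with a floor of 5 CPM, 329 with a floor of 50 CPM, 10130 with no floor and 2304 under scaling by T cell identity genes. The 1518 lower genes became 670 with total counts, 624 in FPKM and 131 under T cell identity scaling. WT fat-high genes also higher in PPARg-2KR (575) became 1635 at 5 CPM, 300 at 50 CPM, 6633 with no floor and 1428 under T cell identity scaling. WT fat-low genes also lower (845) became 469 with total counts, 548 at 50 CPM, 436 in FPKM and 98 under T cell identity scaling. Genes with a PPARg-2KR ratio above the WT ratio by 1 or more (270) became 499 with total counts, 1543 at 5 CPM, 94 at 50 CPM, 5953 with no floor and 621 under T cell identity scaling, and those below it by 1 or more (263) became 131 with total counts, 972 with no floor, 106 in FPKM and 160 under T cell identity scaling. The median of B cell markers turned from 1.66 to −0.30 with a floor of 50 CPM, where fewer markers remain. Medians or ratios under 1 in size that changed sign were the chemokine and homing list (0.12 to −0.24 at 50 CPM), CD8 T and NK markers (−0.53 to 0.42 at 5 CPM, 0.49 with no floor, 1.37 at 50 CPM and 1.31 under T cell identity scaling), Treg core genes (−0.11 to 0.20 with total counts, 0.17 in FPKM and 0.81 under T cell identity scaling), cell cycle genes (−0.24 to 0.16, 0.10 and 0.90) and Ccr7 (−0.09 to 0.19, 0.23 and 0.81). Under T cell identity scaling alone, positive values were reached by PPARG partners (0.54), fatty acid oxidation (0.54), efflux and sterol (0.65), heat shock (0.45), oxidative phosphorylation (0.17) and glycolysis genes (0.49), Foxp3 (0.20) and Il2ra (0.42). The set of kept genes was redrawn for each setting. Each single-gene ratio and list median was compared with its main value once per alternative setting. In 216 of these comparisons the gene stayed within its counting interval or the median moved by less than 0.1. In 170 the value moved by more, and 1 was reversed. A floor does not enter the ratio of a single gene, so those comparisons could not move. Lower floors admit genes whose spleen level rests on a few reads. Mouse-to-mouse spread, sorting and the balance of cell types are unmeasured with these libraries, and the cause of the shifts between scalings was not tested.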
